A study of Mus musculus with 12 samples.

Results

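The 10 mouse genes described here encode the HIF transcription factors and the enzymes that make them sensitive to oxygen and iron. They are the alpha factors Hif1a, Epas1 and Hif3a, the beta partners Arnt and Arnt2, the prolyl hydroxylases Egln1, Egln2 and Egln3, the asparaginyl hydroxylase Hif1an and the ubiquitin ligase subunit Vhl. They were chosen by symbol, as the components of this one pathway, with earlier results of these data known. All 10 were among the 24411 gene symbols of the files. Their transcripts were measured by RNA-seq in the NR5A1(+) cells of gonads from mouse fetuses. NR5A1 is a nuclear receptor of gonadal and adrenal somatic cells. In all, 12 libraries in 5 groups were compared. Dfo XY (n = 3) was XY gonads cultured with deferoxamine, an iron chelator, at 150 µM, and control XY (n = 3) and control XX (n = 2) were XY and XX gonads in culture named as controls by their titles. The libraries E11.5 XY (n = 2) and likewise E11.5 XX (n = 2) came from gonads at that embryonic day, called WT in their titles.

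The genotype label of every library, Nr5a1-hCD271, was the same, so the tagged allele was common to all the groups. The cultured gonads were of stage E10.8 and stayed attached to aorta, mesonephros and mesenchyme on a filter for 19.2 h, in DMEM with 10% horse serum. The labels repeat the culture and Dfo protocols on every sample, E11.5 and control samples included, so the groups follow the titles and the collection of the E11.5 cells is not settled. Whether replicates came from different embryos is not stated, so the p-values stand on a spread between libraries that may be technical.

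In cells with oxygen and iron, the EGLN enzymes hydroxylate prolines of the alpha factors, and the VHL protein then directs the alpha factors to ubiquitination and degradation. HIF1AN hydroxylates an asparagine in the alpha factors and so hinders their binding of coactivators. Both kinds of enzyme need iron, oxygen and oxoglutarate, which is why iron chelators are widely used to stabilise the alpha proteins. ARNT and ARNT2 dimerise with the alpha factors, and the dimers bind DNA at hypoxia response elements. This regulation acts on protein, and the values here are transcript levels.

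The values are TPM, which keep no record of sequencing depth, so the depth is unknown and no counting interval was computed. Some facts of the libraries touch all the results. Dfo XY replicates 1 and 2 held 13.57 and 24.56 TPM of Xist, which marks the inactive X chromosome, against at most 0.90 TPM in the other XY libraries. Xist was at 165.81 and 174.81 TPM in control XX and at 124.31 and 149.06 TPM in E11.5 XX. Both Dfo XY libraries thus go against their label in this respect, at a level below every XX library. The called members are therefore also given without Dfo XY replicates 1 and 2. The RNA component of RNase P, Rpph1, took 19.5 to 23.6% of all TPM in Dfo XY and 15.3 to 20.3% in control XY, against 6.96 to 7.20% in control XX. Replicates 1 and 2 lay closer to each other than to replicate 3, with a median absolute log2 difference of 0.09 in Dfo XY and 0.08 in control XY, against 0.19 to 0.20 to replicate 3. Among markers of gonadal somatic cells, Nr5a1 included, none of the 7 was at 0 in all libraries of a group. In bulk RNA, fewer cells of a type and less RNA per cell cannot be told apart.

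All 10 members were detected in all 12 libraries. Over the 12 libraries, Hif1a was the most abundant member, at a mean of 164 TPM, above 95.6% of the genes tested. Egln1 followed at 91.1 TPM, Egln2 at 61.8 TPM and Arnt at 50.3 TPM. The other 6 members had means between 12.8 TPM for Hif3a and 31.4 TPM for Hif1an, where the median gene tested had 14 TPM. All 10 passed the filter on low values, a TPM of 1 or more in 2 or more libraries, which left 16133 genes for testing.

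**Figure D1:**
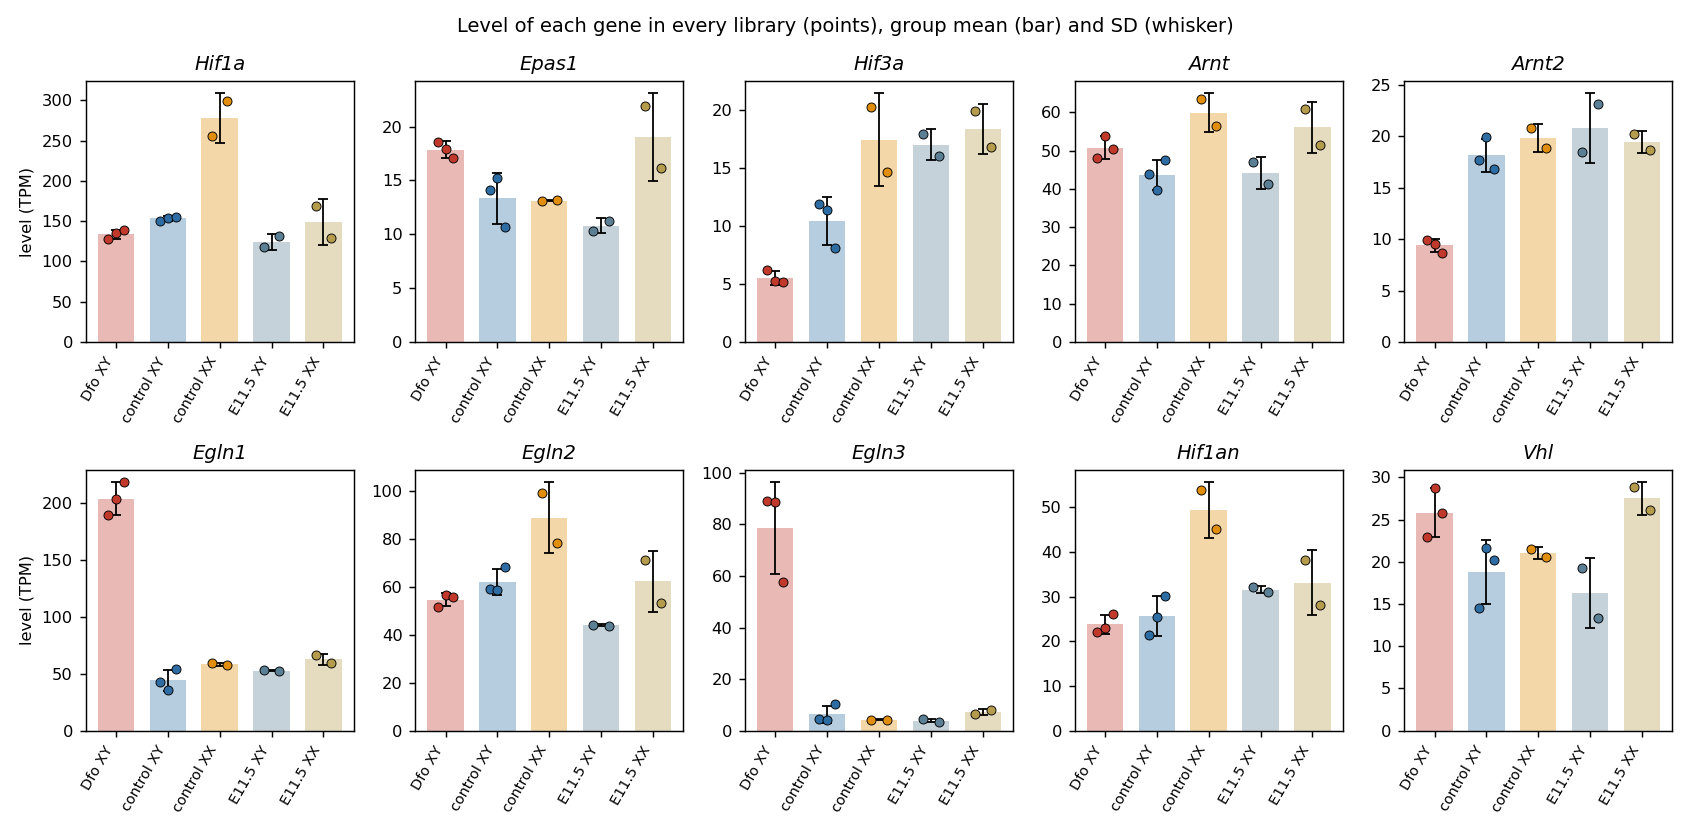
Transcript levels of the 10 genes in each of the 12 libraries, with TPM on a linear axis and 1 point per library. Bars mark the group mean and whiskers the SD. The groups are Dfo XY, control XY, control XX, E11.5 XY and E11.5 XX. Egln1 and Egln3 in Dfo XY stand above all other libraries, Arnt2 and Hif3a in Dfo XY stand below them, and Hif1a and Hif1an are highest in control XX.

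The first comparison, of Dfo XY with control XY, asks what iron chelation did to the transcripts of the pathway in XY gonads. Egln1 and Egln3 rose, Arnt2 and Hif3a fell, and the other 6 members did not pass the test. Called genes have a Benjamini-Hochberg adjusted p below 0.05 in limma on log2(TPM + 1). By that rule 15.5% of all genes tested were called, 4.98% as higher and 10.5% as lower in Dfo XY, beside 2 of 10 members as higher and 2 of 10 as lower. The median change of all genes was -0.17 on the log2 scale, and that of the members was 0.06. The split of all calls moved with the scaling, from 803 higher and 1695 lower genes on TPM to 1521 higher and 1023 lower with median-of-ratios scaling. Values of 9 of the 10 members did not overlap between the groups, as was so for 38% of all genes tested.

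Egln3 (chromosome 12, 54178981 to 54203860, minus strand, GRCm38) encodes a prolyl hydroxylase whose own gene is a known HIF target. It had 89.12, 88.59 and 57.87 TPM in the Dfo XY libraries, against 4.58, 4.14 and 10.21 TPM in the control XY libraries. The lowest Dfo XY library, replicate 3, lay far above the highest control XY library, which was also replicate 3. The mean was 78.5 ± 17.9 TPM in Dfo XY and 6.31 ± 3.38 TPM in control XY (SD, n = 3 each), a 12.4-fold difference. The log2 change was 3.51 ± 0.28 (SE, limma, adjusted p = 5.97e-06), which ranked 12th among the rises of all 16133 genes. Without the Dfo XY libraries that held Xist it was 3.10 ± 0.43 (limma, adjusted p = 0.00291). That fit leaves 1 Dfo XY library, which is assumed to vary like the other groups, here and wherever these libraries are left out.

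Egln1 (chromosome 8, 124908587 to 124949324, minus strand) encodes the prolyl hydroxylase known as the main oxygen sensor in most tissues, and it too is a known HIF target. It had 189.46, 204.26 and 218.64 TPM in the Dfo XY libraries, against 42.79, 36.09 and 53.97 TPM in the control XY libraries. All 3 Dfo XY values lay above all 3 control XY values, and also above every value of the other groups. The mean was 204 ± 14.6 TPM in Dfo XY and 44.3 ± 9.03 TPM in control XY (SD, n = 3 each), a 4.61-fold difference. The log2 change was 2.20 ± 0.13 (SE, limma, adjusted p = 5.46e-07), the 60th largest rise. Without the Dfo XY libraries that held Xist it was 2.30 ± 0.19 (limma, adjusted p = 0.000246).

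Egln2 (chromosome 7, 27158658 to 27166802, minus strand) encodes the prolyl hydroxylase that is known as the family member not induced by hypoxia. It had 51.79, 56.67 and 55.8 TPM in the Dfo XY libraries, against 59.3, 58.97 and 68.28 TPM in the control XY libraries. The values did not overlap, and all 3 were lower in Dfo XY. The change of -0.18 ± 0.13 was close to the median of all genes and did not pass the test (limma, adjusted p = 0.385). The gene overlaps the cytochrome gene Cyp2t4, which was listed at 0 TPM.

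The start regions of the 3 EGLN genes are shown because these paralogs differed in their response and a core hypoxia response element is short enough to be read by eye. Each run holds 300 bases of GRCm38.p6, 5′ to 3′ on the gene's own strand, with 250 bases before the RefSeq start and 50 from it. Capitals mark ACGTG or GCGTG, the core letters of the element, on either strand.
Egln1, chr8:124949205-124949504, minus strand: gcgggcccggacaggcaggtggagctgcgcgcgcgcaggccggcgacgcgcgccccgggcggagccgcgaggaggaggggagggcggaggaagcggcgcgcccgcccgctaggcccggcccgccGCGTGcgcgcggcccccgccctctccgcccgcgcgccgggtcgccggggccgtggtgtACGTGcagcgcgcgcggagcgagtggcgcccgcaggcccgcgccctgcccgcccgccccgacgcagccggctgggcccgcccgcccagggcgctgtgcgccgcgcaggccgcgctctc
Egln2 (upstream start), chr7:27166753-27167052, minus strand: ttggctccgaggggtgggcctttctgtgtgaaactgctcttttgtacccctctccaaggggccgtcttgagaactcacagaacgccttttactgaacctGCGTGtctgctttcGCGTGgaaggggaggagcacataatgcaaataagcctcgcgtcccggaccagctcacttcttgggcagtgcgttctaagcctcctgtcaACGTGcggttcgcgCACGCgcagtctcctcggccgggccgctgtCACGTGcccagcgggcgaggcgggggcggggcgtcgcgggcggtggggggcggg
Egln3, chr12:54203825-54204124, minus strand: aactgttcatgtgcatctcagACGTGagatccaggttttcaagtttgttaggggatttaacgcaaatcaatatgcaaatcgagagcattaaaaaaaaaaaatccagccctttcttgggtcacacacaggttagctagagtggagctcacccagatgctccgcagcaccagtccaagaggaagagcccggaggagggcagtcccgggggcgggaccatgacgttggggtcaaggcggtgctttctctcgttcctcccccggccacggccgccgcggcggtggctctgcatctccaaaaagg
The window of Egln1 held 1 ACGTG and 1 GCGTG, that of Egln2 held 3 of each, and that of Egln3 held 1 ACGTG. Among 32851 promoter windows in RefSeq, 19.6% held ACGTG, 32.4% held GCGTG and 43.8% held at least 1 of them. The palindrome CACGTG is read on both strands and so counts as 2 matches, as at the last marked stretch of Egln2. The 6 matches at the upstream start of Egln2, which did not pass the test, were reached by 0.694% of all windows, while its other listed start, at chr7:27165679-27165978, held 1 match, a number reached by 43.8% of all windows. GC content was 86.0% for Egln1, 64.3% for Egln2 and 54.7% for Egln3, and the median of all windows was 52.7%. Of the 10 members, 9 had a window in the table, and Epas1 had none. Of the other members, Hif1a had 3 matches, Hif3a had 2 and Arnt had 1, while the windows of Arnt2, Hif1an and Vhl held none. These matches describe letters in a window only.

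With these changes the make-up of the prolyl hydroxylase transcripts differed between the groups. The summed TPM of Egln1, Egln2 and Egln3 was 337 ± 10.5 in Dfo XY and 113 ± 17.5 in control XY (SD, n = 3 each), a ratio of 2.99. Egln3 made up 27.0, 25.3 and 17.4% of that sum in the Dfo XY libraries, against 4.29, 4.17 and 7.71% in the control XY libraries. The mean share was 23.2 ± 5.12% in Dfo XY and 5.39 ± 2.01% in control XY (SD, n = 3 each). Egln2 held 16.2% of the sum in Dfo XY and 55.5% in control XY, and Egln1 held 60.5% in Dfo XY and 39.1% in control XY. Egln2 was thus the largest part in control XY and the smallest in Dfo XY. For each unit of summed alpha factor TPM there were 2.15 ± 0.0711 units of EGLN TPM in Dfo XY and 0.638 ± 0.109 in control XY (SD, n = 3 each).

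Each of the 5 sums, shares and ratios compared in this way, including those of Epas1 and Arnt2 given with those genes, had no overlap between the groups. The exact two-sided permutation test gave p = 0.1 for each, which is the smallest p that 3 libraries against 3 allow and stays 0.1 after Benjamini-Hochberg adjustment over the 5.

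**Figure D2:**
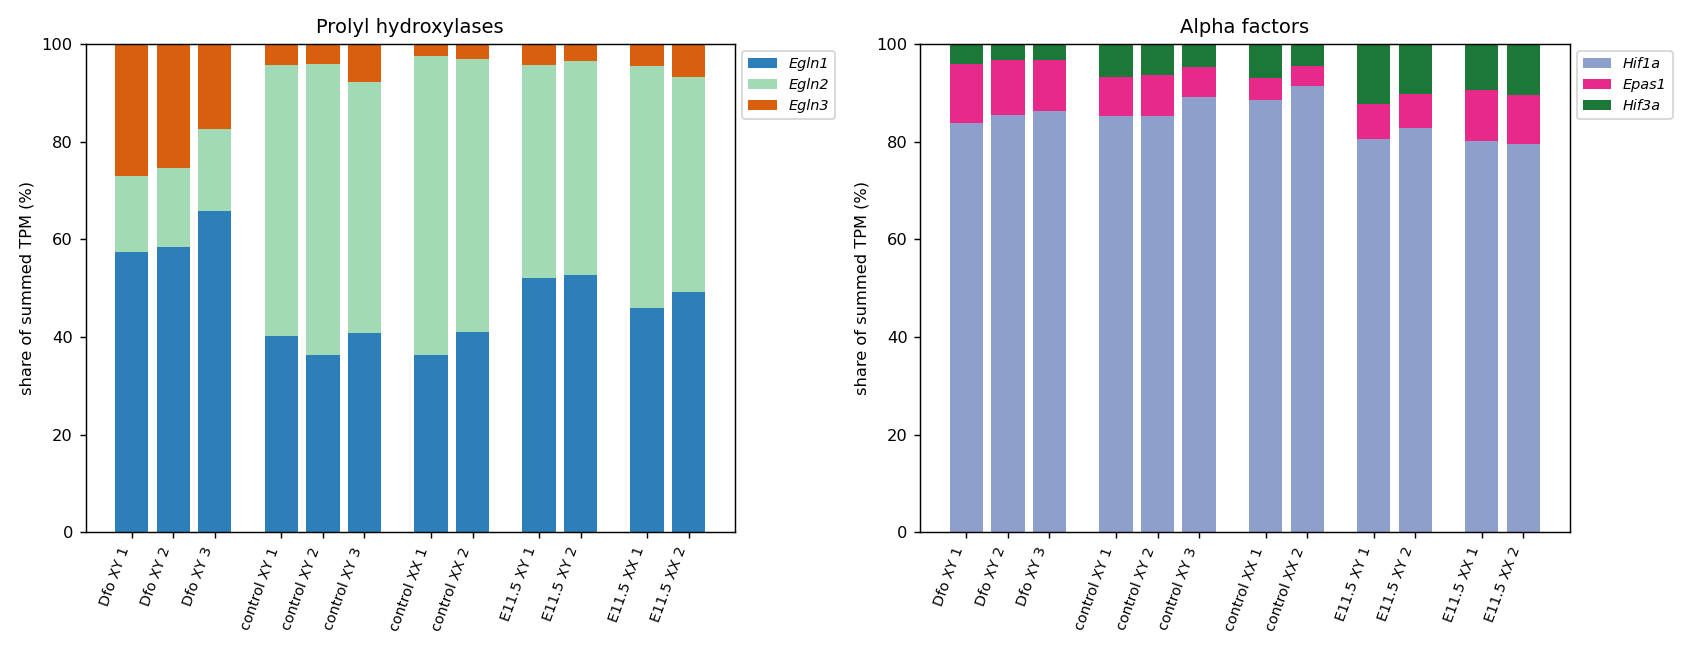
Shares of the summed TPM, in percent, of the 3 prolyl hydroxylase transcripts (left) and of the 3 alpha factor transcripts (right), with 1 stacked bar per library. Egln3 made up 17.4 to 27.0% of the prolyl hydroxylase transcripts in Dfo XY and 4.17 to 7.71% in control XY, while Hif1a held most of the alpha factor transcripts in every library.

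Among the alpha factors, Hif3a (chromosome 7, 17031507 to 17062427, minus strand) is the least studied, and some of its isoforms are known to inhibit the other alpha factors. The deposited values are per gene, so its isoforms were not separated. It had 6.2, 5.22 and 5.16 TPM in the Dfo XY libraries, against 11.87, 11.35 and 8.11 TPM in the control XY libraries. All 3 Dfo XY values were lower than all 3 control XY values. The mean was 5.53 ± 0.584 TPM in Dfo XY and 10.4 ± 2.04 TPM in control XY (SD, n = 3 each), and the log2 change was -0.80 ± 0.19 (SE, limma, adjusted p = 0.0136). This call rested on single libraries and on counting the close replicates 1 and 2 apart. With these averaged in both groups the change was -0.74 (limma, adjusted p = 0.124). With control XY replicate 1 left out the adjusted p in limma was 0.0656. With control XY replicate 2 left out the adjusted p was 0.0599, and with Dfo XY replicate 2 left out 0.0513. It was 0.116 without the Dfo XY libraries that held Xist, with a change of -0.88, and 0.0506 after quantile normalization, with a change of -0.63 (limma).

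Epas1 (chromosome 17, 86753700 to 86833410, plus strand) encodes the alpha factor best known from endothelium. It had 18.61, 17.92 and 17.04 TPM in the Dfo XY libraries, against 14.12, 15.22 and 10.65 TPM in the control XY libraries. The values did not overlap, but the log2 change of 0.41 ± 0.17 did not pass the test (limma, adjusted p = 0.12). It passed with median-of-ratios scaling (0.55, limma, adjusted p = 0.0442) and after quantile normalization (0.57, limma, adjusted p = 0.0404). The summed TPM of 12 endothelial markers, none of them at 0 in a whole group, was 115 to 201 in Dfo XY and 82.6 to 200 in control XY, and 0 of the 12 were called. Epas1 made up 11.4 ± 0.796% of the summed alpha factor TPM in Dfo XY and 7.51 ± 1.23% in control XY (SD, n = 3 each).

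Hif1a (chromosome 12, 73901375 to 73947530, plus strand) encodes the broadly expressed alpha factor. It had 127.89, 135.35 and 138.59 TPM in the Dfo XY libraries, against 149.86, 154.54 and 155.66 TPM in the control XY libraries. All 3 values were lower in Dfo XY, by a log2 change of -0.19 ± 0.11 that lay close to the median of all genes and did not pass the test (limma, adjusted p = 0.248). With the replicate numbers as a block, the same change had an adjusted p of 0.0398 in limma. Hif1a made up 85.1% of the summed alpha factor TPM in Dfo XY and 86.6% in control XY. The whole of Hif1a lies inside the antisense gene Gm15283 (73843039 to 73949814), and its end overlaps the protein-coding gene Gm49321 of the same strand (73937653 to 73968375). Neither symbol has a value here, so reads shared with Gm49321 could not be told apart. Those of Gm15283, on the opposite strand, could be set apart only if strand was used in the quantification.

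Of the beta partners, Arnt2 (chromosome 7, 84246278 to 84410176, minus strand) fell. Its protein is best known from neurons and from the developing hypothalamus. It had 9.94, 9.51 and 8.69 TPM in the Dfo XY libraries, against 17.66, 19.9 and 16.79 TPM in the control XY libraries. The 3 Dfo XY libraries were the lowest of all 12, well apart from the control XY libraries. The mean was 9.38 ± 0.635 TPM in Dfo XY and 18.1 ± 1.6 TPM in control XY (SD, n = 3 each), and the log2 change was -0.88 ± 0.14 (SE, limma, adjusted p = 0.00141). Without the Dfo XY libraries that held Xist it was -0.98 ± 0.21 (limma, adjusted p = 0.0268).

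Arnt (chromosome 3, 95434388 to 95497240, plus strand), the beta partner found in most cells, had 47.96, 53.86 and 50.45 TPM in the Dfo XY libraries, against 43.83, 39.8 and 47.64 TPM in the control XY libraries. The values did not overlap, with Dfo XY above, and the log2 change of 0.21 ± 0.11 did not pass the test (limma, adjusted p = 0.233). It passed with median-of-ratios scaling alone among the scalings tried (0.36, limma, adjusted p = 0.0338). Arnt2 made up 15.6 ± 1.35% of the summed Arnt and Arnt2 TPM in Dfo XY and 29.4 ± 3.68% in control XY (SD, n = 3 each).

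Vhl (chromosome 6, 113623959 to 113631633, plus strand), which encodes the substrate receptor of the ubiquitin ligase, had 22.9, 28.7 and 25.78 TPM in the Dfo XY libraries, against 14.5, 21.62 and 20.23 TPM in the control XY libraries. The values did not overlap, with Dfo XY above, but the log2 change of 0.45 ± 0.17 did not pass the test (limma, adjusted p = 0.104). It passed with the replicate block (0.45, limma, adjusted p = 0.0306), with median-of-ratios scaling (0.60, limma, adjusted p = 0.0362) and after quantile normalization (0.58, limma, adjusted p = 0.048). Hif1an (chromosome 19, 44562850 to 44576274, plus strand) had 22.1, 23.09 and 26.22 TPM in the Dfo XY libraries, against 21.34, 25.47 and 30.21 TPM in the control XY libraries. It was the one member whose values overlapped, and its log2 change was -0.10 ± 0.15 (limma, adjusted p = 0.727).

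**Figure D3:**
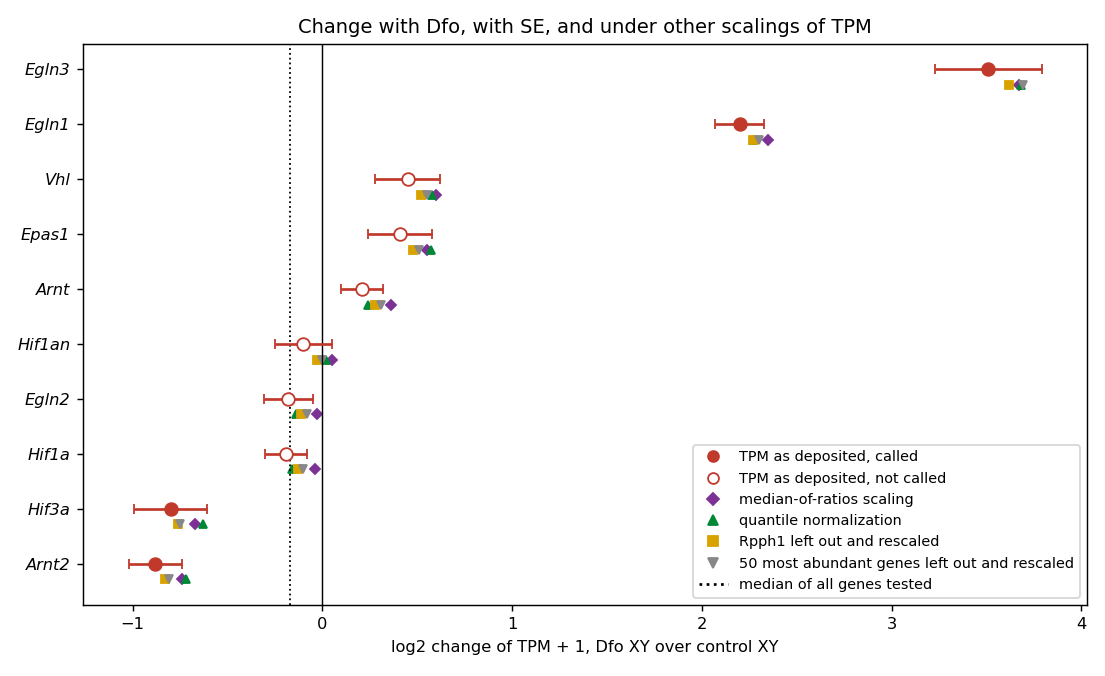
Log2 change of TPM + 1 in Dfo XY over control XY for the 10 genes, with the SE from limma, filled points for called genes and a dotted line at the median of all genes tested, -0.17. Egln3 (3.51) and Egln1 (2.20) lie far to the right, Arnt2 (-0.88) and Hif3a (-0.80) to the left, and the other 6 lie between -0.19 and 0.45.

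Marker transcripts of gonadal somatic cells and of other cell types were read beside these results. Marker calls were made on TPM as deposited and were not repeated under the other scalings. Among all genes 10.5% were called as lower and 4.98% as higher in Dfo XY, with a median log2 change of -0.17. In Dfo XY against control XY, 4 of 7 gonadal somatic markers fell. These were Wt1, Emx2, Cbx2 and Lhx9, with adjusted p in limma of 0.00555, 0.00865, 0.0443 and 0.0496. The summed TPM of the list was 510 to 583 in Dfo XY and 680 to 828 in control XY. Of the mesenchymal markers 3 of 7 fell, with sums of 436 to 493 TPM in Dfo XY and 677 to 731 TPM in control XY, and of the germ cell markers 2 of 7 fell, with sums of 179 to 226 TPM in Dfo XY and 382 to 489 TPM in control XY. Most of the germ cell sum was Ifitm1, at 180 TPM in Dfo XY and 411 TPM in control XY, while Dppa5a, the other that fell, averaged 0.687 TPM in Dfo XY and 6.24 TPM in control XY, and Kit averaged 18 TPM in Dfo XY and 15.2 TPM in control XY. Of 8 neural markers 1 rose and 2 fell, with sums of 51.1 to 79.2 TPM in Dfo XY and 66.1 to 158 TPM in control XY. Of 6 mesonephric markers 1 fell, with sums of 39.6 to 70.4 TPM in Dfo XY and 69.8 to 83.2 TPM in control XY. The erythroid sum ranged over 1010 to 2550 TPM in Dfo XY and 248 to 1960 TPM in control XY, and that of macrophage markers over 69.7 to 105 TPM in Dfo XY and 40.2 to 91.8 TPM in control XY, with 0 genes called in either list. The part of these cells in the falls of Arnt2 and Hif3a was not tested.

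Other genes of the pathway were taken from lists chosen, like the members, with earlier results known. All 18 listed HIF target genes rose in Dfo XY, with a median log2 change of 2.87. By smallest adjusted p they were led by Vegfa, an angiogenic growth factor, Slc2a1, a glucose transporter, P4ha2, a collagen prolyl hydroxylase, and Pfkfb3, a regulator of glycolysis. Pfkfb3 averaged 155 ± 23.3 TPM in Dfo XY and 15.9 ± 1.87 TPM in control XY (SD, n = 3 each), a log2 change of 3.19 ± 0.16 (limma, adjusted p = 2.1e-07). The change of Egln3 was larger than the median of these targets and that of Egln1 was smaller.

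Among 17 other regulators and cofactors of HIF, 4 rose and 0 fell, with a median change of 0.07. Siah2, a ubiquitin ligase known to act on EGLN proteins, averaged 25.1 ± 5.37 TPM in Dfo XY and 7.77 ± 1.13 TPM in control XY (SD, n = 3 each), and changed by 1.56 ± 0.22 on the log2 scale (limma, adjusted p = 0.000471). Cited2, which competes with the alpha factors for coactivators, averaged 188 ± 64.3 TPM in Dfo XY and 82.5 ± 21.3 TPM in control XY, and its log2 change was 1.14 ± 0.25 (limma, adjusted p = 0.00929). Wsb1, which encodes a ubiquitin ligase subunit reported to act on VHL, changed by 0.92 ± 0.08 (limma, adjusted p = 9.07e-06). The coactivator gene Crebbp changed by 0.28 ± 0.08 (limma, adjusted p = 0.0322). Of the 4 partners of VHL in its ligase, Rbx1, the RING subunit, fell, by -0.42 ± 0.11 (limma, adjusted p = 0.0232), and the other 3 were not called. Of 11 other bHLH-PAS factors, the wider family of the HIF proteins, 8 were tested and 0 were called, with a median change of -0.19.

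**Figure D4:**
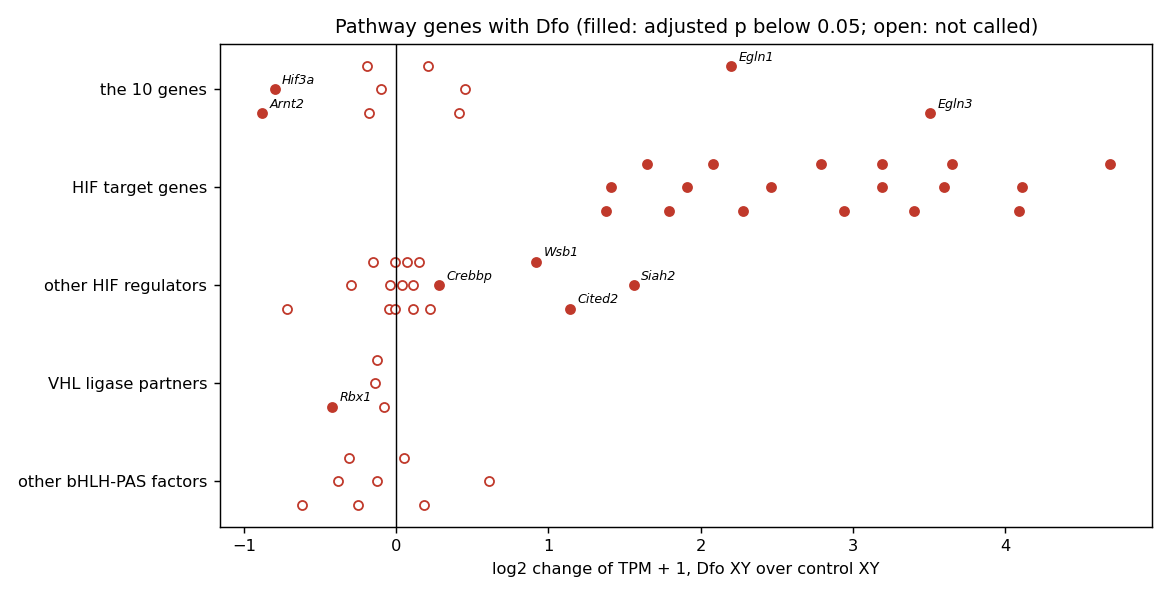
Log2 change of TPM + 1 in Dfo XY over control XY for the members and for 4 lists of related genes, 1 point per gene, filled where called by limma. All 18 HIF target genes lie above 0 and are called, against 4 of 17 other regulators and cofactors, 1 of 4 VHL ligase partners and 0 of 8 other bHLH-PAS factors.

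By the likeness rule, genes were ranked by Pearson r with each called member over the 12 libraries, and r is a description here, since 3 Dfo XY libraries stand apart from the rest and 11371 genes were searched. The genes most like Egln3 were Slc2a3, P4ha2 and Vegfa, with r from 0.985 to 0.981. Those most like Egln1 were Bnip3l, Slc16a3 and Pgk1, with r from 0.989 to 0.987. Those most like Arnt2 were Copg2, Aldh1a2 and Casd1, with r from 0.972 to 0.970. Those most like Hif3a were Mn1, Pcolce and Phactr2, with r from 0.977 to 0.962.

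The second comparison, of control XY with control XX, asks whether the pathway differed between the sexes in culture. It shares the control XY libraries with the first. Hif1a, Hif1an, Hif3a, Egln2 and Arnt were lower in control XY, and none was higher. Among all genes 25.2% were called, 22.2% as lower and 2.97% as higher in control XY, with a median change of -0.22. On TPM 479 genes were higher and 3585 lower, and with median-of-ratios scaling 529 were higher and 499 lower, so the excess of lower genes depended on the scaling. Of the 10 members, 6 did not overlap between the groups, against 53.7% of all genes.

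Hif1a had 149.86, 154.54 and 155.66 TPM in control XY, against 256.14 and 299.53 TPM in control XX. Both control XX values lay above every other library of the series. The log2 change was -0.85 ± 0.12 (SE, limma, adjusted p = 0.000947), and it kept its call under each of the 4 other scalings and with each library left out, but not in the fit of only these groups with the replicate block (-0.86, limma, adjusted p = 0.0731). Hif1an had 21.34, 25.47 and 30.21 TPM in control XY, against 53.8 and 45.04 TPM in control XX, again with no overlap. Its log2 change was -0.93 ± 0.17 (limma, adjusted p = 0.00318), and it lost its call after quantile normalization (-0.56, limma, adjusted p = 0.0602) and with the same block (-1.05, limma, adjusted p = 0.0956).

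The other 3 calls did not hold under other scalings. Egln2 averaged 62.2 ± 5.28 TPM in control XY (n = 3) and 89 ± 14.9 TPM in control XX (n = 2), with a log2 change of -0.50 ± 0.14 (limma, adjusted p = 0.0219). Hif3a averaged 10.4 ± 2.04 TPM in control XY and 17.5 ± 3.97 TPM in control XX, with a log2 change of -0.69 ± 0.21 (limma, adjusted p = 0.0311). Arnt averaged 43.8 ± 3.92 TPM in control XY and 60 ± 4.99 TPM in control XX, with a log2 change of -0.45 ± 0.13 (limma, adjusted p = 0.0216). With control XX replicate 1 left out none of the 3 was called, with adjusted p from 0.152 for Arnt to 0.233 for Hif3a in limma, and control XY replicate 2 had the same effect (0.0587 to 0.0859). Nor was any called under any of the 4 other scalings, where the changes were -0.09 to -0.32 for Egln2, -0.38 to -0.52 for Hif3a and -0.04 to -0.26 for Arnt. Egln1 averaged 44.3 ± 9.03 TPM in control XY and 58.3 ± 1.15 TPM in control XX and just missed the threshold (-0.41 ± 0.14, limma, adjusted p = 0.0534), which it passed without control XY replicate 3 (-0.56, limma, adjusted p = 0.00612).

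Egln3 had 4.58, 4.14 and 10.21 TPM in control XY, against 4.08 and 4.34 TPM in control XX. The values overlapped, with control XY replicate 3 standing above the rest, and the gene was not called. Markers of other cells differed between the same groups. Their calls were made on TPM as deposited and were not repeated under the other scalings. On TPM 22.2% of all genes were called as lower and 2.97% as higher in control XY. Of the 7 gonadal somatic markers 5 were lower in control XY, with sums of 680 to 828 TPM in control XY and 1310 to 1390 TPM in control XX, and of 8 neural markers 6 were higher in control XY, with sums of 66.1 to 158 TPM in control XY and 28.7 to 43.6 TPM in control XX. Of 8 erythroid markers 4 were higher, with sums of 248 to 1960 TPM in control XY and 155 to 175 TPM in control XX, and of 6 mesonephric markers 3 were higher, with sums of 69.8 to 83.2 TPM in control XY and 42.3 to 67.4 TPM in control XX. Of 7 mesenchymal markers 3 were lower, with sums of 677 to 731 TPM in control XY and 916 to 995 TPM in control XX. Higher too were 2 of 12 endothelial and 1 of 7 macrophage markers. Of 7 germ cell markers 1 was called, Ifitm1, lower at 411 TPM in control XY and 616 TPM in control XX. The median log2 change of the germ cell markers was 0.19, and that of all genes was -0.22. The part of these differences in the results for Hif1a and Hif1an was not tested.

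Dfo XY differed from control XX in 7 of the 10 members, where 38.6% of all genes were called, 33.8% as lower and 4.79% as higher, and the median change was -0.33. On TPM 773 genes were higher and 5461 lower, and with median-of-ratios scaling 1778 were higher and 1410 lower. This comparison shares libraries with both of the others, and chromosomal sex and Dfo cannot be told apart in it. All 10 members did not overlap, against 58.3% of all genes. In the fit of only these groups with the replicate block, none of the 7 kept its call (limma, adjusted p from 0.0617 to 0.131). Egln3 was higher in Dfo XY by 3.91 ± 0.31 (limma, adjusted p = 4.99e-06) and Egln1 by 1.79 ± 0.14 (limma, adjusted p = 4.89e-06). The 5 that were lower were Hif3a at -1.49 ± 0.21, Hif1a at -1.04 ± 0.12, Hif1an at -1.02 ± 0.17, Arnt2 at -1.01 ± 0.16 and Egln2 at -0.68 ± 0.14, with adjusted p in limma from 4.79e-05 for Hif1a to 0.00241 for Egln2. Of these 5, Hif3a had the largest fall on the log2 scale, with 5.53 ± 0.584 TPM in Dfo XY (n = 3) and 17.5 ± 3.97 TPM in control XX (n = 2). Epas1, at 17.9 ± 0.787 TPM in Dfo XY and 13.1 ± 0.0778 TPM in control XX, was not called (0.41 ± 0.19, limma, adjusted p = 0.0984), but it was called as higher under each of the 4 other scalings (0.66 to 0.87, limma, adjusted p from 0.0075 to 0.0247) and in the fit of only these groups (0.41, limma, adjusted p = 0.0463). Egln2 lost its call with median-of-ratios scaling (-0.21), after quantile normalization (-0.23), without the 50 most abundant genes (-0.32) and without the Dfo XY libraries that held Xist (-0.65, limma, adjusted p = 0.0519).

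At E11.5, limma called 0 of the 10 members between XY and XX, where 2.29% of all genes were called, 1.09% as higher and 1.2% as lower in E11.5 XY. There, 5 members had an unadjusted p below 0.05, all of them lower in E11.5 XY. The share of all genes below that unadjusted threshold was not computed, so the count is a description only. The values of 6 members did not overlap, against 44.4% of all genes. Epas1 had 10.3 and 11.27 TPM in E11.5 XY, against 21.89 and 16.17 TPM in E11.5 XX, with a log2 change of -0.75 ± 0.20 (limma, adjusted p = 0.0672, and 0.046 with control XY replicate 3 left out, which adds to the shared estimate of spread). The endothelial markers summed to 259 to 286 TPM in E11.5 XY and 375 to 424 TPM in E11.5 XX, and their part in the values of Epas1 was not tested. Vhl had 19.25 and 13.4 TPM in E11.5 XY, against 28.86 and 26.15 TPM in E11.5 XX, with a log2 change of -0.74 ± 0.21 (limma, adjusted p = 0.0828). Hif1a had 117.55 and 130.99 TPM in E11.5 XY, against 169.4 and 128.61 TPM in E11.5 XX, so its values overlapped.

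The difference between the sexes in culture was then set against that at E11.5 as an interaction. Limma called 0 of the 10 members, where 1.33% of all genes were called, 0.192% as higher and 1.14% as lower. An unadjusted p below 0.05 was reached by 4 members, and the share of all genes below it was not computed. For Hif1a the difference was -0.60 ± 0.18 (limma, adjusted p = 0.0934) and for Hif1an -0.87 ± 0.26 (limma, adjusted p = 0.0931), both further below XX in culture than at E11.5. For Epas1 it was 0.76 ± 0.28 (limma, adjusted p = 0.15) and for Egln3 1.15 ± 0.46 (limma, adjusted p = 0.189). The median over all genes was -0.26, and -0.017 with median-of-ratios scaling. Less the median of -0.26, the differences were -0.34 for Hif1a, -0.61 for Hif1an, 1.02 for Epas1 and 1.41 for Egln3. The adjusted p for Hif1an was 0.0478 with control XY replicate 3 left out, and that for Hif1a was 0.0459 with E11.5 XX replicate 1 left out (limma).

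**Figure D5:**
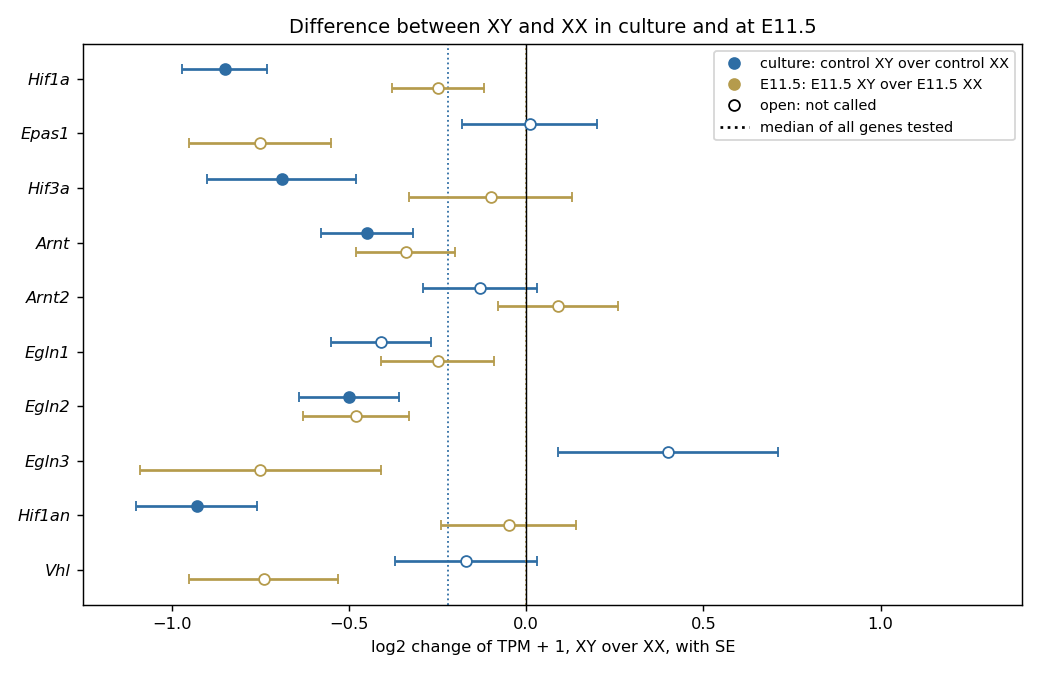
Log2 change of TPM + 1 in XY over XX for the 10 genes, in culture (blue, control XY over control XX) and at E11.5 (ochre), with the SE from limma, filled points for called genes and dotted lines at the medians of all genes tested. Hif1an (-0.93) and Hif1a (-0.85) lie furthest left in culture, and no E11.5 point is filled.

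Cultured controls were last compared with E11.5 gonads of the same sex, which differ in stage, handling and possibly collection, and these cannot be told apart. In control XX against E11.5 XX, Hif1a was the 1 member called, and it was higher, where 9.07% of all genes were called, 7.36% as higher and 1.71% as lower in control XX. It had 256.14 and 299.53 TPM in control XX, against 169.4 and 128.61 TPM in E11.5 XX, without overlap, and a log2 change of 0.90 ± 0.13 (limma, adjusted p = 0.00151). In a fit of only these 2 groups the call was lost (0.90 ± 0.19, limma, adjusted p = 0.19). With E11.5 XX replicate 1 left out of the fit of all groups, Egln2 (0.72, limma, adjusted p = 0.0237) and Hif1an (0.79, limma, adjusted p = 0.044) were called as well. In control XY against E11.5 XY, limma called 0 members. Among all genes 5.66% were called, 2.62% as higher and 3.04% as lower in control XY. There, 3 members had an unadjusted p below 0.05, a threshold at which the share of all genes was not computed. These were Egln2 (0.49 ± 0.14, limma, adjusted p = 0.0635), Hif3a (-0.67 ± 0.21, limma, adjusted p = 0.0817) and Hif1a (0.30 ± 0.12, limma, adjusted p = 0.148). Egln2 and Hif1a were called under each of the 4 other scalings, at 0.57 to 0.61 for Egln2 and 0.38 to 0.43 for Hif1a.

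Set in order of their means over the 5 groups, the members followed different patterns, given here as a description. Hif1a and Hif1an were highest in control XX, with no overlap with the next group, and the lower groups of Hif1a each overlapped their neighbour in the order. Egln1 and Egln3 were highest in Dfo XY, and below it the 4 other groups of Egln3 each overlapped their neighbour. Arnt2 was level among the 4 groups without Dfo, which overlapped their neighbours, and Hif3a was lowest in Dfo XY, next in control XY and higher in the remaining 3 groups, which overlapped. Epas1 and Vhl were highest in E11.5 XX and in Dfo XY, which overlapped for both genes. Egln2 was highest in control XX and lowest in E11.5 XY, with no overlap with the next group at either end. Arnt was highest in control XX, E11.5 XX and Dfo XY, which overlapped, and lower in E11.5 XY and control XY, which overlapped too.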

How the data were processed

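Per the labels, total RNA of NR5A1(+) cells was made into libraries with a stranded SMART-Seq kit. The deposited values are TPM, 1 file per library, made by the authors with the aligner STAR 2.7.10b, with RSEM and R 4.1.2, on mm10, per the submitters' processing notes. Not given in the sources used here are annotation, RSEM version and filters. TPM is scaled to one total per library, so a change in a few abundant genes moves all others, and the depth is unknown.

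Groups followed the titles. Kept were the 16133 of 24411 genes that reached 1 TPM in 2 or more of the 12 libraries. Log2(TPM + 1), which understates changes of low genes, was fitted with limma 3.58.1 in R 4.3.3, with 1 coefficient per group, a mean-variance trend and all libraries in 1 fit, for 7 contrasts. Within a contrast, Benjamini-Hochberg adjustment ran over all genes tested, and genes were called below 0.05. Fold differences are ratios of mean TPM. Sums, shares and ratios were tested with exact permutations in scipy 1.17.1 under Python 3.11.15. The fit was tested first on simulated data with independent noise in each library. That test does not cover close replicates or differences in scaling between libraries, both of which these data hold.

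The members and all gene lists were chosen with earlier results of these data known. All members were named. Called genes of each related list were named by smallest adjusted p, up to 4, and for each called member the 3 genes of highest Pearson r of log2(TPM + 1) over the libraries, where a group mean reached 5 TPM and leaving out predicted genes, Y-linked genes and Xist. Positions are from GENCODE M21 (GRCm38, the assembly also called mm10) and start regions from RefSeq on GRCm38.p6.

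Replicate numbers are shared by Dfo XY and control XY in the titles. Deviations from the group means correlated at 0.21, 0.12 and 0.34 for the same-numbered pairs 1, 2 and 3. By the rule that each exceed 0.1, the numbers were taken to pair the libraries. But replicates 1 and 2 crossed also gave 0.14 and 0.18, so this check could not tell pairs 1 and 2 from their crossing. The pairing comes from these data and the titles, and no label says what a number stands for. The main fit held no replicate block, which was used only as an alternative. Pairing was examined only between control XY and Dfo XY, so in the other comparisons the block rests on numbers that were not checked. Alternatives were 4 other scalings (median of ratios, quantile, Rpph1 left out, the 50 most abundant genes left out), another pseudocount (0.1), no filter, fits of only the groups compared with and without the block, replicates 1 and 2 averaged, each library left out, and the Dfo XY libraries with Xist left out.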

Additional observations from a re-analysis of the deposited data

How the results depend on the processing

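Of the 70 log2 changes of members, 40 were followed one by one, those of all members with Dfo and elsewhere those with an unadjusted p below 0.05. Their 872 values under alternatives gave 790 with the same direction and call, 50 that lost and 28 that gained a call, and 4 that changed sign, all of Hif1an in Dfo XY against control XY (0.05 with median-of-ratios scaling, 0.02 after quantile normalization, 0.04 without the Dfo XY libraries that held Xist, and -0.22 to 0.03 with a library left out, the last without control XY replicate 3). The other 30 changes, with 648 values, changed sign 60 times. Egln1, Egln3 and Arnt2 kept their calls in that comparison under every alternative run, of which leaving out the Xist libraries rests on 1 Dfo XY library. There, 4 members were called, 7 with median-of-ratios scaling, 3 to 4 with a library left out and 6 with the replicate block. The summed EGLN difference of 225 TPM was 272 TPM with median-of-ratios scaling. All-gene calls were 2498 (803 higher, 1695 lower), 1521 higher and 1023 lower with median-of-ratios scaling, 1268 and 1184 after quantile normalization, 1069 and 1357 without Rpph1, 1177 and 1207 without the 50 most abundant genes, 3843 with the replicate block, 1530 and 1541 without control XY replicates 1 and 2 in turn, 1595 and 1485 without Dfo XY replicates 1 and 2 in turn, 833 with replicates 1 and 2 averaged and 858 without the libraries that held Xist.

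In control XY against control XX, 5 members were called, 2 with median-of-ratios scaling, without Rpph1, without the 50 most abundant genes or with replicates 1 and 2 averaged, 1 after quantile normalization, 0 with the replicate block and 2 to 5 with a library left out. In Dfo XY against control XX, 7 were called (2 higher, 5 lower), 8 under each of the 4 other scalings (4 higher and 4 lower in 3 of them, where Epas1 and Vhl joined the higher genes and Egln2 left the lower ones) and 0 with the block. In control XY against E11.5 XY, 0 were called, 2 under each of the 4 other scalings and 0 to 1 with a library left out. In control XX against E11.5 XX, 1 was called, 0 in the fit of only those groups with or without the block, and 1 to 3 with a library left out. Between the sexes at E11.5 and for the interaction, 0 were called, and 0 to 1 with a library left out. These blocked fits rest on 2 shared numbers each and have few degrees of freedom. The median change of all genes in Dfo XY against control XX was -0.33, and 0.07 with median-of-ratios scaling; in control XY against control XX it was -0.22 and 0.07. The split of all calls into higher and lower was 422 and 491 in control XY against E11.5 XY (742 and 474 after quantile normalization), 1187 and 276 in control XX against E11.5 XX (474 and 378 with median-of-ratios scaling) and 31 and 184 for the interaction (21 and 13). Depth is unknown, so the precision of low values could not be given.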

Other observations

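Outside the comparisons with Dfo XY the HIF target genes were mostly not called, as was so for most genes tested. Of the 18, limma called 2 as lower and 0 as higher in control XY against control XX, 1 as lower in control XX against E11.5 XX, 1 as lower in control XY against E11.5 XY and 1 as lower in E11.5 XY against E11.5 XX, with 0 higher in these. In the same order of comparisons, 25.2, 9.07, 5.66 and 2.29% of all genes were called. All 18 targets were higher in Dfo XY than in control XX, where 4.79% of all genes were called as higher. Among the 17 other regulators and cofactors of HIF, 3 were higher and 8 lower in control XY than in control XX. There 2.97% of all genes were called as higher and 22.2% as lower. Lower genes numbered 3585 on TPM and 499 with median-of-ratios scaling, and the regulators were examined on TPM only. Egln3 varied most between replicates in control XY, with a coefficient of variation of 53.6%, against 2.01% for Hif1a in the same libraries.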
